A study of Rattus with 9 samples.

Results

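Tuft cells of the rat bile duct were chosen by their measured transcripts, as cells that carried at least 2 of the 4 tuft genes Trpm5, Pou2f3, Avil and Dclk1. A cell also needed at least 1 of the epithelial genes Epcam, Krt8 and Krt18, no transcript of the fibroblast gene Dcn, insulin genes under 2% and the hormone genes Sst, Ghrl and Gcg under 1% of its transcripts. Cells had over 400 and under 6000 genes, under 25% mitochondrial and under 3% hemoglobin transcripts. This rule found 3027 tuft cells among 150379 cells (2.01%), or 6.56% of the 46160 epithelial cells that met every other part of it. Because the rule uses measured transcripts, the levels of its own genes and the gap between tuft cells and other cells are descriptions and were not tested.

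Tuft cells are rare epithelial cells of hollow organs that carry a bundle of apical microvilli and sense luminal chemicals through the taste cascade, in which gustducin and a phospholipase C open the cation channel Trpm5. They answer with leukotrienes, prostaglandins, acetylcholine and the type 2 cytokine Il25. Pou2f3 is the transcription factor on which the lineage depends, and in the biliary tree the cells are known mainly from the extrahepatic ducts and the gallbladder.

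The study asked whether raising hepatic artery flow after liver transplantation (LT) alters selenoamino acid metabolism in tuft cells and eases biliary injury. Single-cell transcripts were counted in digested bile ducts from 3 sham samples, from 3 LT samples taken 1, 3 and 7 days after LT with ischemic injury, and from 3 flow samples taken at the same days after the same operation plus ligation of the splenic and gastroduodenal arteries. LT and flow rats therefore share the transplantation and the ischemia, and each arm has 1 sample per day. The control for raised flow is LT, and the control for transplantation is the sham duct, for which the labels give no day. Each sham sample was 1 library, each transplanted sample 3, except flow day 3, of which 2 libraries were analysed here. Nothing in the labels ties a library to its own rat, so p-values measure only the spread between these samples, part of which may be technical. Within LT and within flow that spread also holds the differences between days 1, 3 and 7, unless day is in the model.

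The 20 libraries held 337 to 13575 cells. In LT day 3, 2479 of 2923 and 3966 of 4312 barcodes over the gene limit were lost to the hemoglobin limit in libraries 2 and 3, and 80 of its 84 tuft cells came from library 1. No pair of libraries shared more than 1.19% of its cell barcodes. Tuft cells had a median of 2078 transcripts (503 to 57780) and 1010 genes. The sample medians ran from 1329 transcripts in sham 3 to 3921 in LT day 7, below those of other epithelial cells in every sample (2968.5 to 6174.5), and the summed tuft transcripts of a sample ran from 501992 to 3019648. The other epithelial cells were 21741 cells with at least 2 of Epcam, Krt8, Krt18, Krt19 and Krt7, no transcript of the 4 tuft genes and none of the leukocyte gene Ptprc.

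The label was described with 4 tuft genes outside the rule, Alox5ap, Ltc4s, Gng13 and Lrmp, which were chosen after seeing the data. Each was found in 64.6% to 88.6% of tuft cells, while Gfi1b, Il25 and Plcb2 were found in 22.1%, 11.1% and 1.12%. At least 2 of Alox5ap, Ltc4s, Gng13 and Lrmp were present in 89.1% of tuft cells, compared with 1.27% to 5.88% of other epithelial cells by sample. This share was 86.5% to 98.3% in 7 samples, 66.1% in flow day 3 and 68.9% in LT day 7. LT day 7 and flow day 3 were thus the samples in which cells met the rule with the least support from further tuft genes, and in both a cell with 4 of the 4 rule genes was rare (3.88% and 1.61% of tuft cells, compared with up to 18.3% in sham 1). Across all samples 51.0% of tuft cells carried 2 of the 4 genes, 39.0% carried 3 and 10.0% carried 4. Dclk1 was seen in 86.9%, Avil in 76.2%, Trpm5 in 58.6% and Pou2f3 in 37.3%, and the commonest combination among cells with 2 was Avil with Dclk1 (22.1% of tuft cells).

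Just outside the threshold, epithelial cells with 1 rule gene had a median over samples of 50.3 CPM of Ltc4s (CPM scales the transcripts summed over the cells of a sample to 1000000), whereas cells with 2 had 850 CPM, cells with 3 or 4 had 1710 CPM and cells with none had 8.39 CPM. Alox5ap followed the same steps, with 21.8, 66.1, 732 and 1340 CPM from none to 3 or 4 rule genes. Among cells with 1 rule gene, 40.5% to 52.3% in sham still had at least 2 of the 4 further tuft genes, compared with 7.46% to 20.9% in the transplanted samples.

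Among 1353 genes at 100 CPM or more in the median sample, 188 were higher in tuft than in other epithelial cells in every sample. Ratios were taken with 10 CPM added to both levels, as the median over samples. The largest belonged to Rgs13, a regulator that shuts off G protein signals. It was at a median of 1390 CPM in tuft cells and 3.57 CPM in other epithelial cells. Of the taste cascade, Gnat3, the alpha subunit of gustducin, was found in 39.8% of tuft cells and 0.267% of other epithelial cells, and Gng13, its gamma partner, in 64.6% and 10.6%. Plcb2, the phospholipase of taste cells, was seen in 1.12% and 0.0506%. The succinate receptor Sucnr1, which tuft cells of the small intestine use, gave no transcript in 3027 tuft cells, which allows up to 0.0991% of cells with a transcript at this depth and sets no limit on cells that express the gene.

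Of the enzymes of lipid mediators, Ltc4s, the synthase of leukotriene C4, was found in 88.6% of tuft cells at a median of 1070 CPM, Alox5ap in 80.2% at 942 CPM, and Alox5, the lipoxygenase that starts leukotriene synthesis, stood at 389 CPM, compared with 8.39, 21.8 and 1.77 CPM in other epithelial cells. Ptgs1, the constitutive cyclooxygenase, was detected in 46.3% of tuft and 11.2% of other epithelial cells and the prostaglandin D2 synthase Hpgds in 3.2% and 0.258%. The type 2 cytokine Il25 was seen in 11.1% and 0.248%, its receptor subunit Il17rb in 29.3% and 1.35%, and Chat, which makes acetylcholine, in 2.58% and 0.0138%. Among the 20 genes of largest ratio were also signalling genes better known from blood cells: the gamma isoform of phosphoinositide 3-kinase Pik3cg (285 CPM), the adaptor Fyb1 (335 CPM) and the transcription factor Spib (173 CPM). Slc5a2, the sodium-glucose transporter known from the kidney, was found in 50.6% of tuft cells and 0.575% of other epithelial cells. Lyz2, a myeloid gene, was seen in 23.9% of tuft and 27.3% of other epithelial cells, Cd74 in 24.9% and 48.0% and S100a9 in 11.8% and 21.6%. Ptprc was seen in 12.3% of tuft cells, while the other epithelial cells were chosen to lack it.

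**Figure D1:**
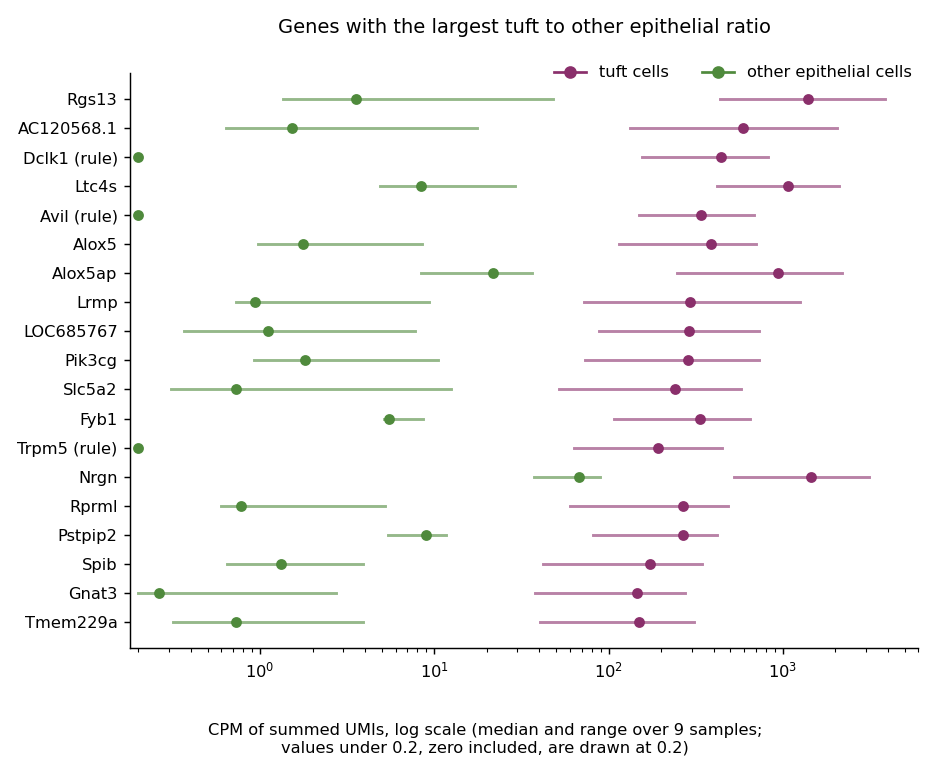
19 of the 20 genes with the largest tuft to other epithelial ratio, as CPM of summed transcripts on a log axis. Points are medians and lines the range over 9 samples, in tuft cells (purple) and other epithelial cells (green); "rule" marks genes that chose the cells, which are 0 in other epithelial cells by construction. Rgs13 stands at 1390 against 3.57 CPM.

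For the shares, epithelial cells were the 46160 cells that needed only 1 of Epcam, Krt8 and Krt18 beside the other limits. Cells with Ptprc were not left out of this count, and their part in the shares was not tested. The share of tuft cells among these epithelial cells was lower in every transplanted sample than in every sham sample. It was 28.8%, 16.2% and 13.7% in sham 1 to 3, 6.18%, 4.55% and 1.53% in LT at days 1, 3 and 7, and 4.69%, 1.14% and 6.40% in flow at days 1, 3 and 7. The exact 95% binomial limits of the highest transplanted sample (5.90% to 6.93%) lay below those of the lowest sham sample (12.5% to 14.9%); such limits cover counting error only. The rule genes were also higher in empty droplets of sham, with Trpm5 at 12.8 to 19.2 CPM and Dclk1 at 31.3 to 46.6 CPM, compared with 0.297 to 5.82 and 7.02 to 18.4 CPM in those of the transplanted samples, and the part of this free RNA in the shares was not tested. The mean was 19.5% ± 8.09 (SD, n = 3) in sham and 4.08% ± 2.26 (SD, n = 6) in the transplanted samples, a difference of -15.5 points (two-sided exact permutation test, p = 0.0238, the smallest that 6 against 3 samples allow; adjusted over 6 share tests, 0.143). LT alone differed from sham by the same -15.5 points, with p = 0.1, the smallest that the exact permutation test gives for 3 against 3 samples.

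Raised flow did not separate the arms in this measure. The share was 4.08% ± 2.68 (SD, n = 3) in flow and 4.09% ± 2.36 (SD, n = 3) in LT, a difference of -0.0126 points (exact permutation test, p = 1.0), and the arms overlapped throughout. Of all cells, tuft cells were 16.4%, 5.26% and 3.60% in sham, 3.76%, 1.03% and 0.301% in LT and 1.38%, 0.351% and 2.03% in flow, so that LT day 1 lay above sham 3. Here the difference between transplanted and sham samples was -6.96 points (exact permutation test, p = 0.0476; adjusted over 6, 0.143), and -2.95 without sham 1.

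The libraries of a sample also differed, although each transplanted library lay below the lowest sham sample. In LT day 1 the 3 libraries had 8.41%, 1.52% and 7.29% tuft cells among epithelial cells, and in flow day 7 they had 9.94%, 0.440% and 8.25%, with 12 tuft cells in library 2. Depth moved the values too. Tuft cells under 2000 transcripts were 71.9% and 74.7% of the tuft cells in sham 2 and 3, and when each cell was thinned to 2000 transcripts and shallower cells were left out, sham 2 and 3 read 4.29% and 3.09%, within the transplanted range of 0.402% to 4.35%, while sham 1 read 27.9%. The difference was then -9.06 points (exact permutation test, p = 0.19). At 1000 transcripts, an added setting, sham read 21.3%, 10.5% and 7.83% and the transplanted samples 0.491% to 4.76%, again without overlap (-10.6 points, exact permutation test, p = 0.0238).

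**Figure D2:**
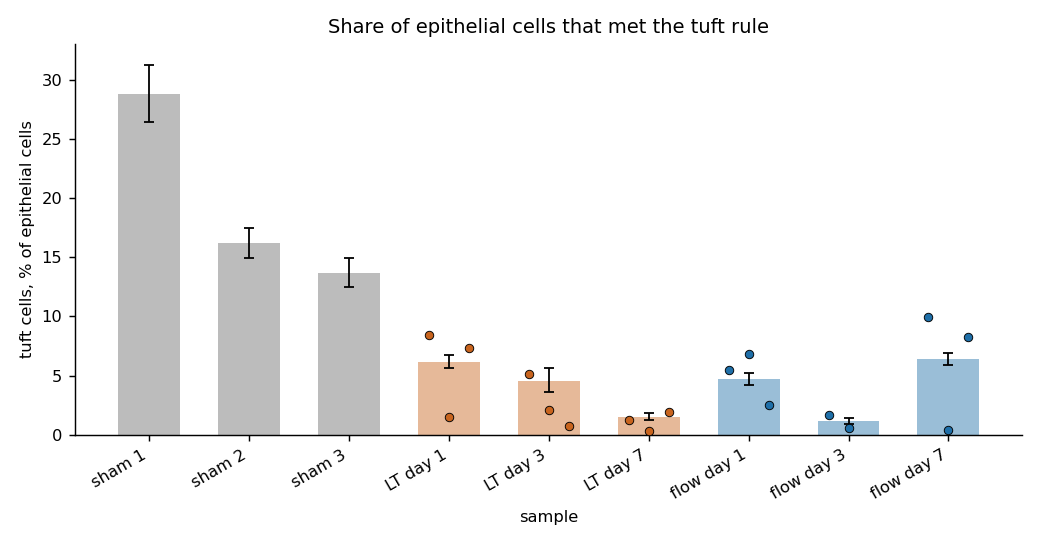
Tuft cells as a percentage of epithelial cells. Bars are samples (grey sham, orange LT, blue flow), whiskers exact 95% binomial limits and points the libraries of samples with more than 1; sham bars run from 13.7% to 28.8% and transplanted bars from 1.14% to 6.40%.

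For gene levels, transcripts were summed over the tuft cells of each sample and 9310 genes were tested with edgeR; levels of tested genes are CPM after TMM scaling, called normalised CPM below, and differences are log2 values with their standard error. In such sums fewer cells of a kind and less RNA per cell cannot be told apart. Raised flow passed the test for no gene. Of 9310 genes, 0 (0.0%) differed between flow and LT at an adjusted p under 0.05, with 332 (3.57%) at an unadjusted p under 0.05 and 3 called by DESeq2. In simulated counts at this size, edgeR recovered 71 of 100 genes changed 4-fold and 6 of 100 changed 2-fold, so a change of 2-fold would mostly have been missed.

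Selenoproteins carry selenium as selenocysteine and include glutathione peroxidases and thioredoxin reductases, which remove peroxides and keep thiols reduced. Of 17 tested, none was called in flow against LT and their median difference was -0.15, beside 0.01 over all genes. Gpx2, the glutathione peroxidase of epithelia, was the most abundant of them. It stood at 2130, 2310 and 2930 normalised CPM in sham, at 6210, 6730 and 3470 in LT at days 1, 3 and 7, and at 4170, 5580 and 2450 in flow. In each arm day 7 was lowest, and flow lay below LT at each day, with a difference of -0.43 ± 0.32 (SE) that edgeR did not call (adjusted p = 1.0). Against sham, Gpx2 was higher by 0.94 in the transplanted samples, again without a call (edgeR, adjusted p = 0.132), and other epithelial cells gave 1.04 ± 0.32. In empty droplets Gpx2 was at 1100 to 1230 CPM in sham, 5490, 1670 and 459 in LT and 1960, 1260 and 830 in flow. The part of this free RNA in the tuft values was not tested.

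Txnrd1, the cytosolic thioredoxin reductase, was the 1 selenoprotein of 17 below an unadjusted p of 0.05 in this contrast, where 1.77% of all genes were lower at that limit. It read 206, 509 and 163 normalised CPM in LT and 195, 151 and 130 in flow, with 126, 151 and 168 in sham, and the difference of -0.87 ± 0.38 (edgeR, adjusted p = 1.0) drew on LT day 3. Gpx1, the cytosolic peroxidase, ranged over 294 to 480 normalised CPM in all 9 samples, and Gpx4, which reduces lipid peroxides in membranes, over 279 to 559. Selenok, a protein of the endoplasmic reticulum, ranged over 399 to 587. Selenom, another of the endoplasmic reticulum, was at 471, 361 and 309 normalised CPM in sham, 456, 327 and 121 in LT and 393, 205 and 256 in flow, above other epithelial cells of the same sample in all 9 samples. For Gpx1 and Gpx4 the flow samples lay wholly below LT (432, 333 and 430 against 443, 480 and 444, and 406, 279 and 406 against 428, 411 and 421), beside 4.68% of all genes, with differences of -0.19 and -0.20 that were not called. Selenoo went the other way, at 21.3, 8.60 and 15.2 in LT and 22.2, 21.6 and 22.4 in flow. Selenok and Selenom overlapped between the arms. The deiodinase Dio2 had no transcript in tuft cells of any sample. Selenow was at 0 in tuft cells, other epithelial cells and empty droplets alike, so its level cannot be read from these files.

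Of 11 tested genes that make and insert selenocysteine, none was called in flow against LT, with a median of 0.07. Sephs2, which makes selenophosphate and is itself a selenoprotein, read 41.0, 12.0 and 30.4 normalised CPM in LT and 28.0, 21.6 and 29.0 in flow. Scly, which releases selenium from selenocysteine, lay between 2.83 and 10.9 in all samples. Among enzymes of the methionine cycle and of selenoamino acids, 11 were tested, 0 were called and the median was -0.07. Mat2a, which makes S-adenosylmethionine, was the 1 gene higher at an unadjusted p under 0.05, beside 1.79% of all genes. It read 102, 99.8 and 78.2 normalised CPM in LT and 133, 153 and 125 in flow, without overlap (4.63% of all genes in this direction), and 121, 150 and 174 in sham, a difference of 0.55 ± 0.20 (edgeR, adjusted p = 1.0). Aimp1, a scaffold of the aminoacyl-tRNA synthetase complex, lay wholly lower in flow, at 124, 120 and 114 in LT and 111, 110 and 87.8 in flow. Cbs and Mat1a were at or near 0 in every sample.

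**Figure D3:**
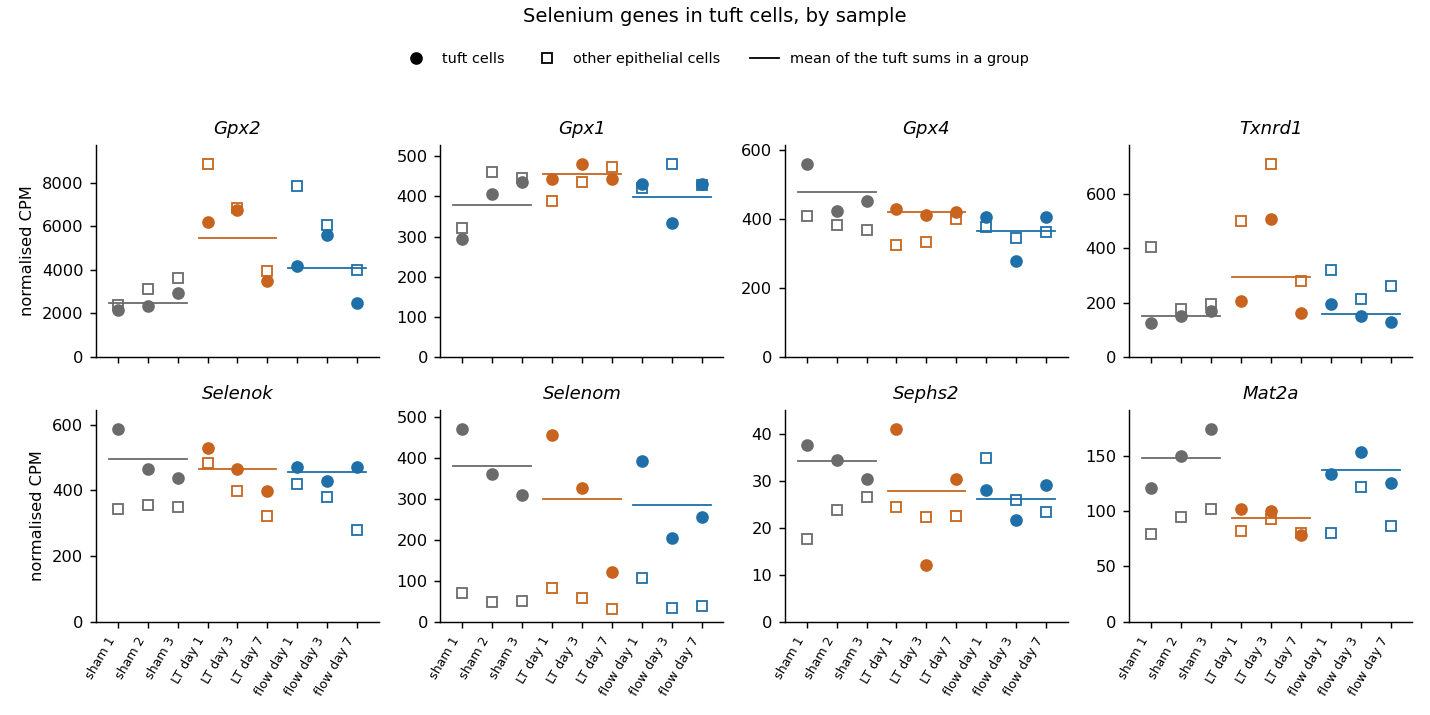
Normalised CPM of 7 selenoprotein genes and of Mat2a by sample. Filled circles are tuft cells, open squares other epithelial cells and lines the mean of the tuft sums in sham (grey), LT (orange) and flow (blue). Gpx2 in tuft cells runs from 2130 to 6730, and Mat2a is at 78.2 to 102 in LT and 125 to 153 in flow.

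Hypoxia genes stood lower in flow than in LT without passing the test. None of the 20 tested was called, 9 were lower at an unadjusted p under 0.05, beside 1.77% of all genes, and the median was -0.64. Lists of goblet, myeloid and smooth muscle genes had lower medians still, at -0.68, -0.79 and -1.44 over 5, 8 and 4 genes. Ldha, which turns pyruvate into lactate, read 337, 374 and 330 normalised CPM in sham, 1400, 848 and 585 in LT and 591, 395 and 414 in flow. Pgk1, a glycolytic kinase, read 160, 168 and 176 in sham, 2080, 786 and 554 in LT and 561, 739 and 303 in flow. Bnip3, a mitophagy receptor, read 137, 32.7 and 39.1 in LT and 21.0, 23.8 and 14.7 in flow. The differences were -1.02 ± 0.30, -1.11 ± 0.46 and -1.97 ± 0.50 (edgeR, adjusted p = 1.0 for each). In 3 of the 20 genes flow lay wholly below LT, beside 4.68% of all genes. LT day 1 was the highest sample for each of the 3 genes named, and without it the median of the list was -0.23. Empty droplets moved in the same way, with Bnip3 at 313, 90.5 and 40.1 CPM in LT and 35.9, 24.3 and 18.8 in flow, and Pgk1 at 3690, 969 and 444 in LT and 644, 478 and 353 in flow. The part of this free RNA in the tuft values was not tested gene by gene, and with it subtracted the median of the list was -0.59. The libraries of that sample differed as well, with Pgk1 at 898, 5540 and 2560 CPM and 272, 34 and 213 tuft cells.

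The 3 genes that DESeq2 called, named here after their values were seen, were lower in flow. LOC100909857 read 70.0, 77.4 and 21.7 normalised CPM in LT and 1.75, 2.16 and 0.334 in flow, with 2.83, 7.39 and 0.658 in sham, a difference of -5.69 ± 0.81 (edgeR, adjusted p = 0.276; DESeq2, adjusted p = 3.07e-06). Other epithelial cells held more of it, at 418, 274 and 81.8 in LT and 42.1, 50.0 and 25.6 in flow. Lypd8, an anti-bacterial protein of mucosal epithelium, read 2100, 2420 and 2580 in tuft cells of LT and 1050, 443 and 316 in those of flow, and Muc13, a membrane mucin, read 71.2, 404 and 76.0 in LT and 38.6, 8.64 and 27.4 in flow. Lypd8 was higher in other epithelial cells of all 9 samples and Muc13 in 7 of 9, and empty droplets moved too. They held 188, 63.5 and 10.9 CPM of LOC100909857 in LT and 8.40, 14.3 and 3.83 in flow, 3110, 941 and 576 of Lypd8 in LT and 436, 501 and 262 in flow, and 15.9 to 65.1 of Muc13 in LT and 12.5 to 17.1 in flow. The part of other cells and free RNA in the tuft values was not tested.

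Transplantation gave more calls than flow did. Against sham, 28 of 9310 genes (0.301%) were called in the 6 transplanted samples, 13 higher (0.14%) and 15 lower (0.161%). LT against sham by itself gave 4 genes (0.043%), all higher and beside 1734 (18.6%) at an unadjusted p under 0.05, which were Ass1, Sod2, Phyh and Ifit3. Flow against sham gave 0, with 1233 genes (13.2%) at an unadjusted p under 0.05 and 107 called by DESeq2. The arms share the sham samples, so their values are given side by side.

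Of the genes that rose, Ass1, which joins citrulline and aspartate on the way to arginine, changed most among those at 20 CPM or more. It read 8.49, 7.39 and 10.5 normalised CPM in sham, 55.3, 193 and 212 in LT and 42.6, 60.5 and 69.1 in flow, with no overlap between sham and transplanted samples, as was so in the same direction for 5.92% of all genes (6.43% the other way). Its difference from sham was 4.08 ± 0.50 in LT, 2.70 ± 0.50 in flow and 3.39 ± 0.47 in both together, or 10.5-fold (edgeR, adjusted p = 0.0295). Sod2, the superoxide dismutase of mitochondria, rose from 145, 181 and 155 in sham to 522, 434 and 415 in LT and 378, 382 and 283 in flow, 2.48-fold. Phyh, a peroxisomal enzyme that starts the breakdown of branched fatty acids, read 52.4, 65.9 and 69.1 in sham, 200, 179 and 154 in LT and 115, 115 and 98.8 in flow. All 3 genes were higher in LT than in flow at every day, although none of these gaps was called. They are among the genes called in LT against sham, so this order is a description, and its share over all genes was not counted.

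Sdf2l1, a cofactor of chaperones in the endoplasmic reticulum, rose 4.05-fold, from 17.0 to 22.8 normalised CPM in sham to 60.8 to 149 in the transplanted samples. Tuba1c, an alpha tubulin, rose 2.20-fold, the receptor phosphatase Ptprz1 3.34-fold and Plac8 1.74-fold, the last from 1420 to 1660 in sham to 2280 to 3460. Below 20 CPM on average, Ifit3, an interferon-induced gene, read 1.42 to 3.08 in sham and 7.67 to 51.6 after transplantation. Spc25, a kinetochore subunit, and Sapcd2 were called higher as well, as was Galnt6, an enzyme that starts mucin-type sugar chains. Rrm2, which makes deoxyribonucleotides, had no transcript in the 3 sham samples and 3.44 to 13.0 normalised CPM in the 6 transplanted samples.

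Of 13208 genes tested in other epithelial cells, 294 (2.23%) were called against sham, 114 higher (0.863%) and 180 lower (1.36%). There the differences were 4.12 ± 0.60 for Ass1, 2.20 ± 0.47 for Sdf2l1, 1.5 ± 0.30 for Sod2 and 1.01 ± 0.18 for Ptprz1, which were called, and 1.70 ± 0.48 for AABR07025010.1, 1.27 ± 0.31 for Phyh and 0.81 ± 0.26 for Tuba1c, which were not. The interaction, which asks whether the change differed between the cell classes, was -0.59 ± 0.35 for Ass1, -0.10 ± 0.21 for Sod2 and 0.78 ± 0.28 for Ptprz1 (edgeR, adjusted p = 0.813, 0.983 and 0.676), and it was not called for the others either.

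Among the genes that fell, Soat1, which esterifies cholesterol for storage, read 50.9, 46.2 and 57.2 normalised CPM in sham, 17.0, 6.88 and 13.0 in LT and 12.9, 17.3 and 17.0 in flow, 3.54-fold lower (-1.82 ± 0.22, edgeR, adjusted p = 0.0295). In other epithelial cells Soat1 was at 18.3 to 22.9 in sham and 10.5 to 22.7 after transplantation (-0.26 ± 0.23), and the interaction of -1.56 ± 0.27 missed the threshold (adjusted p = 0.106). Camk1d, a calmodulin-dependent kinase, read 54.5, 40.6 and 28.9 in sham and 6.52 to 17.4 in the transplanted samples, 3.90-fold lower. Ano7, of the anoctamin family of channels and scramblases, fell 2.41-fold from 49.3 to 72.7 in sham to 17.2 to 29.8, and Smim24, a small membrane protein, fell 3.65-fold. In other epithelial cells Camk1d, Ano7 and Smim24 lay below 10 normalised CPM in all 9 samples. Empty droplets held 6.91 to 12.1 CPM of Soat1 in sham and 3.75 to 6.67 CPM after transplantation. Ano7 was at 2.04 to 4.26 and 0.082 to 1.29 CPM there, and Smim24 at 3.85 to 4.99 and 0.234 to 1.39. Camk1d overlapped, at 3.06 to 4.63 and 1.29 to 4.15 CPM. The part of this free RNA in the tuft values was not tested.

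Col11a2, a collagen chain, read 72.9, 40.6 and 32.2 normalised CPM in sham tuft cells and 3.26 to 16.9 after transplantation, with 2.26 at most in other epithelial cells. In empty droplets Col11a2 was at 4.3 to 8.8 CPM in sham and 0.562 to 1.63 CPM after transplantation, and its part was not tested. Gsta1, a glutathione S-transferase, fell 4.04-fold in tuft cells, from 148 to 198 in sham to 23.2 to 96.4, and differed by -2.16 ± 0.28 in other epithelial cells. Empty droplets held 184 to 590 CPM of Gsta1 in sham and 29.2 to 278 CPM after transplantation. Its part in the tuft values was not tested by itself, and with free RNA subtracted no gene was called in this contrast. Below or near 20 CPM the genes Mmp12, Dpt, Hhip, Ell2 and Ca11 fell too. In empty droplets Mmp12 was at 42.4 to 70.6 CPM in sham and 13.4 to 25.8 CPM after transplantation. Dpt is a fibroblast gene that stood at 220 to 1760 CPM in the empty droplets of sham and 43.8 to 476 CPM in those of the transplanted samples. The 8 fibroblast genes summed to 51.3 to 385 CPM in sham tuft cells and 30.4 to 171 CPM after transplantation, and their part in the result was not tested.

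Another 4 of the 15 lower genes, Prss1, Ctrb1, Clps and LOC103689940, include trypsinogen, chymotrypsinogen and colipase of the exocrine pancreas. Prss1 read 13.4, 268 and 450 normalised CPM in sham tuft cells and at most 4.67 after transplantation. It passed the filter on low counts only through sham, so its call is a description. Prss1 stood at 171, 469 and 3000 in other epithelial cells of sham, and at 313, 7290 and 9150 CPM in the empty droplets of the sham libraries, compared with 0.902 to 94.5 CPM in those of the transplanted samples. The part of this free RNA in the tuft values was not tested gene by gene. When the free RNA share, estimated at 3.74% to 24.1% per sample, was subtracted, these 4 genes no longer passed the filter on low counts and were not tested, and none of the 23 of the 28 genes still tested was called.

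**Figure D4:**
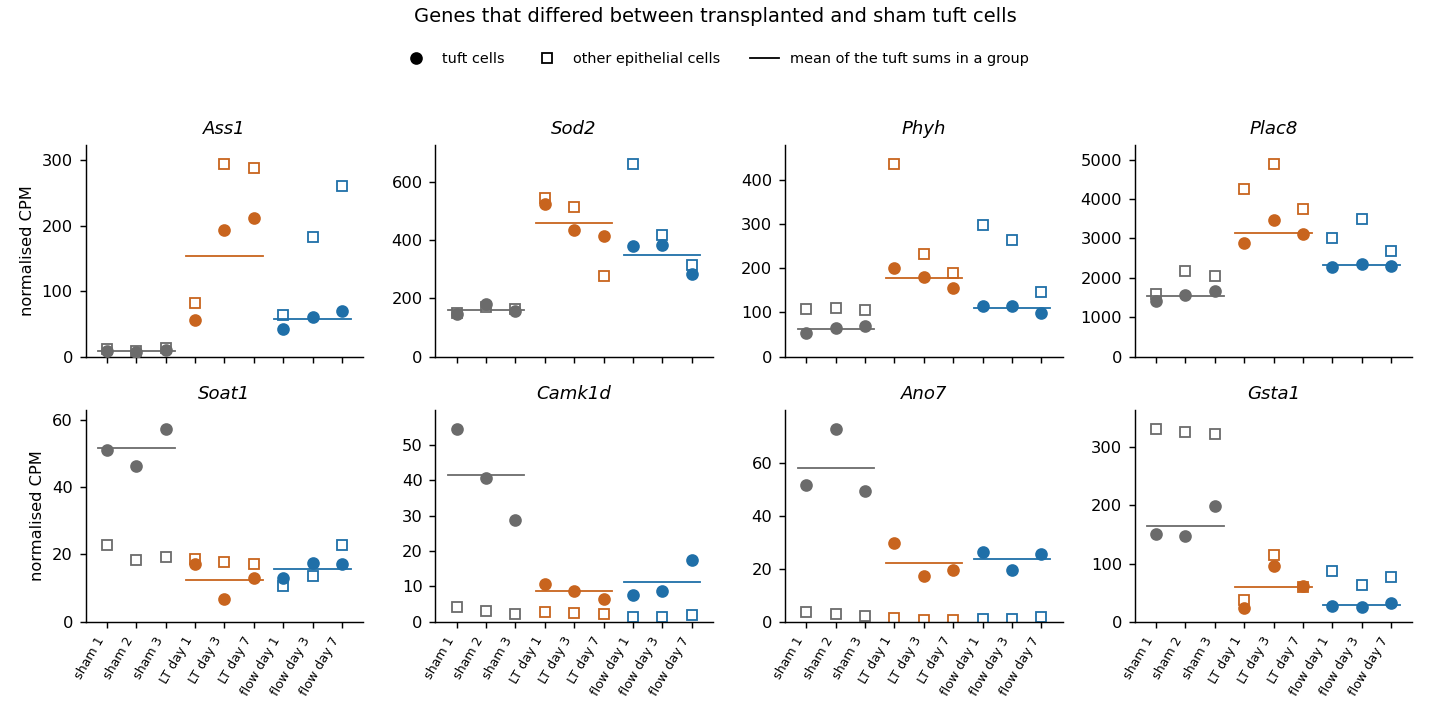
Normalised CPM of 8 genes that edgeR called between transplanted and sham tuft cells, by sample. Filled circles are tuft cells, open squares other epithelial cells, lines the mean of tuft sums in a group. Ass1, Sod2, Phyh and Plac8 are lowest in the 3 sham samples; Soat1, Camk1d and Ano7 are highest there, as is Gsta1.

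Free RNA moved with several of the genes that rose. In empty droplets Sod2 was at 179 to 393 CPM in sham and 769 to 1810 CPM after transplantation, above tuft cells in every sample. Ass1 was at 7.31 to 11.4 and 33.9 to 128 CPM there, Sdf2l1 at 45.9 to 61.4 and 100 to 184, and Plac8 at 715 to 1200 and 1420 to 4240. With free RNA subtracted the differences were 0.84 for Sod2, 3.45 for Ass1, 2.08 for Sdf2l1 and 0.73 for Plac8, none of them called by edgeR.

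The 28 calls were sensitive to single samples although their direction was not. No gene was called without sham 2, sham 3, LT day 3, flow day 1 or flow day 3. Without sham 1, 40 genes were called, 33 of them lower, and 15 of the 40 were among the 28. None was called with thinned cells or without cells holding a lymphocyte or Ptprc transcript. With at least 3 of 4 tuft markers 1 gene was called, which was not among the 28. Of the 28, these settings still tested 14, 26 and 17. All 28 kept their sign in each setting that left out a sample and tested them.

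Tuft genes themselves stood lower in the transplanted samples, and none passed the test. The medians against sham were -0.50 for 9 lineage factors, -0.66 for 7 genes of taste transduction, -0.61 for 10 of eicosanoid synthesis, -0.95 for 7 type 2 and cholinergic effectors and -0.70 for 15 signalling genes shared with blood cells, beside -0.03 over all genes. At an unadjusted p under 0.05, 4 of 9, 2 of 7, 2 of 10, 3 of 7 and 4 of 15 were lower, beside 10.5% of all genes. Rgs13 read 3650, 1570 and 1180 normalised CPM in sham, 1520, 1420 and 467 in LT and 1330, 652 and 1400 in flow. Il25 read 70.7, 36.9 and 32.9 in sham, 28.2, 17.2 and 6.52 in LT and 33.3, 4.32 and 21.7 in flow. Sham 1 was the highest sample, and LT day 7 and flow day 3 were the lowest for both genes.

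Nfatc1, a calcium-regulated transcription factor, came closest to a call among the lineage factors, at 126, 115 and 92.1 in sham, 51.1, 27.5 and 38.0 in LT and 58.4, 28.1 and 55.1 in flow (-1.31 ± 0.23, edgeR, adjusted p = 0.0512). Hpgds read 27.6, 14.8 and 9.21 in sham and 1.09 to 6.48 in the transplanted samples (-2.29 ± 0.44, edgeR, adjusted p = 0.0652). Because Hpgds passed the filter on low counts only through sham, its values are a description. Gng13 read 1230, 429 and 503 in sham and 104 to 382 after transplantation (-1.26 ± 0.40, edgeR, adjusted p = 0.135). Of the taste genes, the median was -0.28 without sham 1 and -0.36 without LT day 7 and flow day 3 together, the samples with the fewest further tuft genes per cell. Those samples were picked by the share of cells with the further tuft genes Alox5ap, Ltc4s, Gng13 and Lrmp. Such genes also enter these lists, so that share and the medians are not independent. Empty droplets held less of tuft genes as well, with Gng13 at 48.5 to 144 CPM in sham and 5.54 to 20.2 CPM after transplantation. Il25 was at 2.49 to 6.91 and 0.0495 to 0.733 CPM there. The part of free RNA in these medians was not tested. In flow against LT the same 5 lists had medians from -0.15 to -0.05 and 0 genes called.

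Genes of cell division leaned the other way. Of 15 tested, 1 was called higher against sham (Rrm2), beside 0.14% of all genes, and the median was 0.89. Rrm2 had no transcript in sham and passed the filter on low counts only through the transplanted samples, so its call is a description. At an unadjusted p under 0.05, 8 were higher, beside 9.46% of all genes. Ccnb1, the mitotic cyclin, read 0.708, 7.39 and 3.95 normalised CPM in sham, 30.6, 13.8 and 34.8 in LT and 52.0, 32.4 and 24.7 in flow (edgeR, adjusted p = 0.0512). Since Ccnb1 passed the filter on low counts through the transplanted samples, its values are a description too. Mki67, a marker of cycling cells, read 29.7, 29.6 and 31.6 in sham and 34.4 to 92.3 in the transplanted samples (edgeR, adjusted p = 0.124). For Mki67, flow at days 1 and 3 was highest.

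With arm held in the model, day 7 differed from day 1 for 43 of 9310 genes (0.462%), of which 41 were higher (0.44%) and 2 lower (0.0215%). Each day rests on 1 LT and 1 flow sample. Of 6 tested genes of MHC class II, which shows peptides to helper T cells, 5 rose with a median of 4.06, and of 11 genes of MHC class I, which shows them to cytotoxic T cells, 5 rose with a median of 2.18, beside -0.01 over all genes.

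Cd74, the invariant chain of class II, read 116, 363 and 222 normalised CPM in sham, 228, 1030 and 4890 in LT at days 1, 3 and 7 and 131, 2360 and 2860 in flow (4.43 ± 0.66, 21.5-fold, edgeR, adjusted p = 0.0321). RT1-Bb, a class II beta chain, read 33.7, 117 and 450 in LT and 22.2, 143 and 492 in flow, with 41.7 to 65.9 in sham (4.07 ± 0.32, adjusted p = 0.00402 with edgeR). Ciita, the factor that switches class II genes on, read 1.16, 10.3 and 16.3 in LT and 0, 19.4 and 9.34 in flow, with 0.708 at most in sham (edgeR, adjusted p = 0.195). Day 1 of both arms lay within or near the sham range for these 3 genes, and both later days were above it.

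RT1-A2, a class I heavy chain, read 241, 265 and 322 normalised CPM in sham, 358, 709 and 1690 in LT and 326, 648 and 1670 in flow (2.30 ± 0.22, 4.92-fold, edgeR, adjusted p = 0.00953). B2m, the light chain of class I, read 1260, 1720 and 1860 in sham, 2470, 5640 and 11100 in LT and 1580, 7010 and 9110 in flow. Psmb8 and Psmb9, subunits of the immunoproteasome, and the peptide transporter Tap1 rose 5.09-, 5.83- and 7.02-fold. Of 18 interferon genes 3 rose, beside 0.44% of all genes, and the median was 1.98. Mx1, an antiviral GTPase, read 2.71, 18.9 and 83.6 in LT and 1.17, 10.8 and 11.7 in flow, with 2.46 to 4.95 in sham. The chemokine Cxcl10 peaked at day 3 in flow (9.93, 1790 and 664) and at day 7 in LT (9.67, 220 and 508) and was not called (edgeR, adjusted p = 0.189). Both day 7 samples lay above both day 1 samples and all sham samples for 6 of 6 class II, 11 of 11 class I and 15 of 18 interferon genes, beside 8.08% of all genes.

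Other epithelial cells had 5110 and 3530 normalised CPM of Cd74 at day 7 in LT and flow, and 77.3 to 177 in sham and at day 1. Empty droplets held 4320 and 5530 CPM of Cd74 at day 7, 1020 to 1080 in sham and 403 and 500 at day 1. Against sham, the change of Cd74 and RT1-A2 with transplantation differed from that in other epithelial cells by -0.34 ± 0.41 and 0.07 ± 0.21, and neither was called (edgeR, adjusted p = 0.931 and 0.991).

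Lymphocyte genes were among the genes called at day 7. Nkg7, a granule protein of cytotoxic lymphocytes, read 162 normalised CPM in LT day 7 and 157 in flow day 7 and at most 6.58 in the other samples, and Cd3g, part of the T cell receptor complex, read 65.2 and 72.7 with at most 12.0 elsewhere. Empty droplets held more of both at day 7, with Nkg7 at 400 and 533 CPM and Cd3g at 148 and 197 CPM, and the estimated free RNA share of these samples was 24.1% and 16.4%. That share was estimated from listed genes of other cell types, Cd3g and Nkg7 among them. Its subtraction lowers such genes by construction, whatever their source, so what follows for these genes is a description. With free RNA subtracted Cd3g was not called, and Nkg7 no longer passed the filter on low counts and was not tested. Both were called without that step, as were Ptprcap, Gzmm, Lag3, Cd69 and Hcst, which are also genes of lymphocytes. The summed level of 8 T and NK genes was 382 and 482 CPM at day 7 and 13.9 to 38.7 CPM in the other 7 samples, with Gzmb at 0 in every sample. A transcript of a lymphocyte list or of Ptprc was held by 39.8% and 32.8% of tuft cells at day 7 and by 7.51% to 26.2% elsewhere. Ighm, the heavy chain of IgM, and the unnamed gene AABR07060872.1 stood highest in flow day 7 library 1, at 2120 and 20500 CPM, with at most 49.6 and 104 CPM in the other libraries with at least 10 tuft cells.

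Without the tuft cells that held a lymphocyte or Ptprc transcript, an added setting, 14 genes were called, all higher and all among the 43. They included Cd74, RT1-Ba, RT1-A2, Tap1, Psmb8, Psmb9, Ubd, which encodes a ubiquitin-like modifier induced by interferon, and Pigr, the receptor that carries IgA across epithelium. With free RNA subtracted 4 remained, which were MGC108823, Ubd, RT1-A2 and Tap1. Ubd read 3.87, 146 and 1050 normalised CPM in LT, 4.67, 184 and 458 in flow and at most 6.16 in sham. The count was 0 without flow day 1 and 1 without LT day 1, where day 1 is left with 1 sample, while the class II median stayed between 3.72 and 4.39 in each setting that left out a sample. Of the 2 genes that fell, G0s2, an inhibitor of fat breakdown, read 278, 134 and 44.5 in LT, 168, 75.6 and 42.4 in flow and 19.1 to 43.2 in sham. Empty droplets held more G0s2, at 2070, 2220 and 1290 CPM in LT, 855, 1330 and 742 in flow and 221 to 362 in sham. The part of this free RNA in the tuft values was not tested. The collagen gene Col16a1 read 22.4, 5.16 and 2.17 in LT and 31.5, 15.1 and 5.67 in flow.

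**Figure D5:**
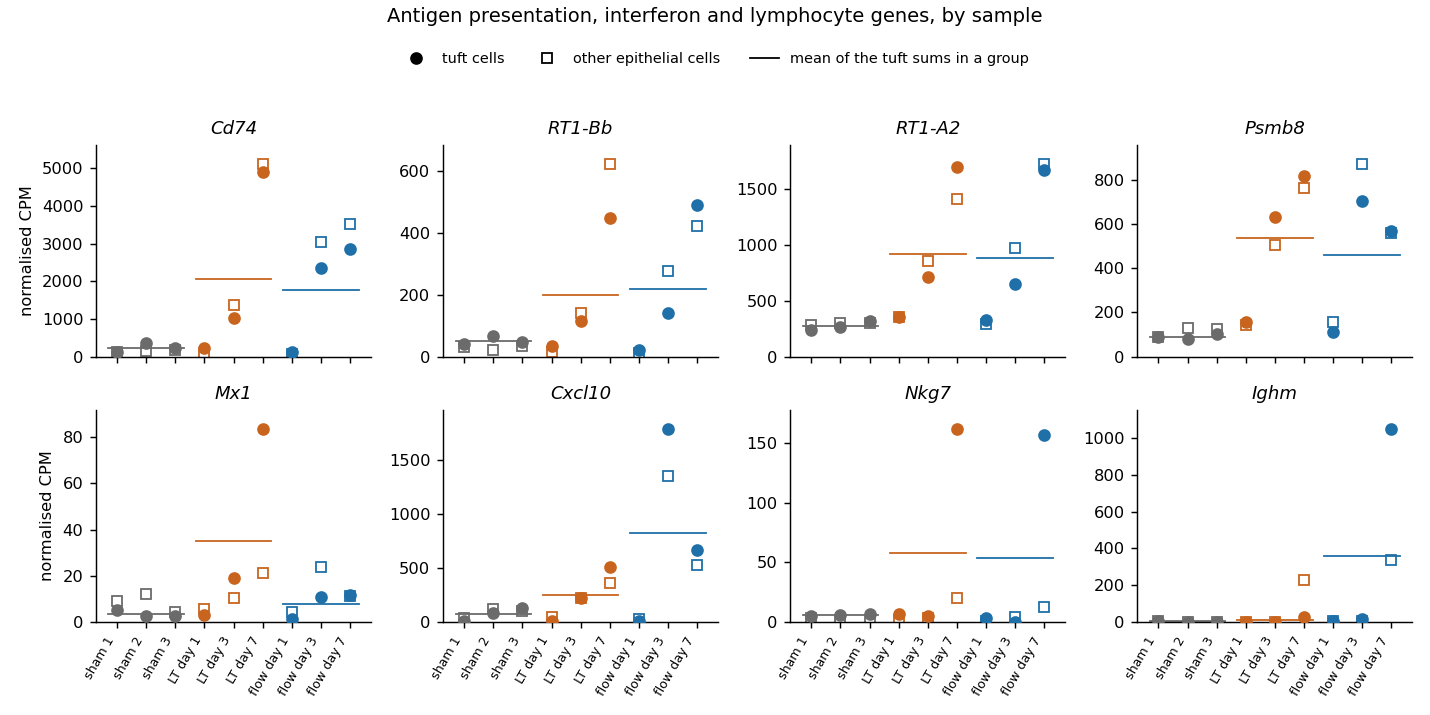
Normalised CPM of class II (Cd74, RT1-Bb), class I and immunoproteasome (RT1-A2, Psmb8), interferon (Mx1, Cxcl10) and lymphocyte (Nkg7, Ighm) genes by sample. Filled circles are tuft cells, open squares other epithelial cells, lines the mean of tuft sums in a group. Cd74 reads 4890 and 2860 in tuft cells at day 7 and at most 363 in sham.

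Myeloid transcripts were higher in each LT sample than in sham, and in flow at days 1 and 7. The summed level of 10 myeloid genes was 495 to 1180 CPM in sham tuft cells, 3790, 2330 and 2940 in LT and 5140, 163 and 1530 in flow, and Lyz2 was the highest of them. Goblet genes summed to 161 to 432 CPM in sham and 602 to 2640 after transplantation, with Agr2 highest, and hepatocyte genes to 654 to 907 and 536 to 1390. B and plasma cell genes summed to at most 10.1 CPM in 8 samples and to 373 in flow day 7. The part of these transcripts in the gene results was not tested.

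Changes that differed between tuft and other epithelial cells were few. With each sample as its own block, 7 of 11178 genes (0.0626%) changed differently with transplantation. The change in tuft cells minus that in other epithelial cells was positive for 4 (0.0358%) and negative for 3 (0.0268%). Those 4 were the tuft genes Rgs13, Gnat3, Slc5a2 and AC120568.1, which did not rise in tuft cells. There Rgs13 was at 1190 to 3840 CPM in sham and 436 to 1440 CPM after transplantation. Gnat3 was at 134 to 273 and 37.8 to 197 CPM, Slc5a2 at 183 to 577 and 51.8 to 252, and AC120568.1 at 508 to 2040 and 133 to 612. The comparison cells were chosen to lack the rule genes, which keeps other tuft genes low there without fixing their level. The values of these 4 genes are therefore a description. Other epithelial cells held 69 transcripts of Gnat3 and 165 of Slc5a2 in all, beside 2113 and 3444 in tuft cells. Rgs13 was at 47.7, 28.7 and 23.4 CPM in other epithelial cells of sham and at 1.35 to 3.79 CPM in those of the transplanted samples, and at 50.7 to 267 and 2.38 to 34.6 CPM in empty droplets. The part of free RNA in these interactions was not tested. Slc16a3, which exports lactate, went the other way, at 79.6, 95.7 and 88.3 CPM in sham tuft cells and 21.9 to 75.8 after transplantation, while other epithelial cells held 8.35 to 17.1 in sham 97.4, 86.8 and 37.2 in LT and 9.37, 9.02 and 21.0 in flow (-2.26 ± 0.30, edgeR, adjusted p = 0.0239). Flow against LT gave 3 such genes (0.0268%), which were the immunoglobulin gene Igh-6, AABR07034739.1 and Mzb1, a chaperone of antibody assembly in B and plasma cells. None of the 3 was called without flow day 7, where B and plasma cell genes stood at 373 CPM in tuft cells, or without LT day 7, where other epithelial cells held 244 CPM of Igh-6.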

How the data were processed

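The authors deposited unfiltered matrices, empty droplets included, of counts of unique molecular identifiers (UMIs, here called transcripts) per gene and cell barcode, 1 per library, with 23999 features. The submitters' processing notes name Cell Ranger 5.0.1 and Seurat 3.2.0, while the matrix headers name Cell Ranger 4. Rats were Sprague-Dawley and grafts were placed by the cuff technique. Members and gene lists were chosen with earlier results of these data known. UMIs were summed over the tuft cells of each sample, and likewise over other epithelial cells. Genes were filtered with filterByExpr, scaled by TMM and tested with edgeR 4.0.16 (quasi-likelihood, R 4.3.3) in 1 model of sham, LT and flow over 9 samples, with Benjamini-Hochberg adjustment over all genes at 0.05. The model for days held arm, and the interaction held sample as a block. Shares were compared by two-sided exact permutation tests. DESeq2 1.42.0 was an alternative, beside other filters, blocks, cell rules, thinning to 1000 transcripts, subtraction of free RNA and leaving out each sample. The free RNA share divided the summed level of listed leukocyte, fibroblast, endothelial and smooth muscle genes in tuft cells by that in empty droplets. Named genes were those of the fixed lists, up to 10 called genes per direction at 20 CPM or more by size of change (where fewer than 5 passed, up to 5 of smallest p, as values), and the 20 genes of largest ratio to other epithelial cells; a few others, named as such or with low levels, were chosen after their values were seen. High doublet scores were marked in 9.25% of tuft cells and kept, with removal as an alternative. The test was checked on simulated counts. For both transplanted arms against sham, edgeR recovered 22 of 100 genes changed 2-fold and 81 of 100 changed 4-fold. Of its 112 calls there, 9 (8.04%) were false. Some items are not reported here. No sequences are shown.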

Additional observations from a re-analysis of the deposited data

Results flagged for a closer look

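These 10 genes changed differently in tuft and in other epithelial cells by the edgeR interaction test with sample as a block (adjusted p under 0.05 over 11178 genes). Values are the log2 change in tuft cells minus that in other epithelial cells, so a positive value need not be a rise in tuft cells. With transplantation they were Rgs13 at 2.47, Slc5a2 at 2.68, Gnat3 at 2.95 and AC120568.1 at 2.03, each a gene of the 20 that led the description of tuft cells, and Slc16a3 at -2.26, Slc4a7 at -1.98 and LOC100912564 at -1.28. The first 4 entered the test mainly through tuft cells, the comparison cells were chosen to lack tuft markers, and free RNA moved with them: empty droplets held 3.51 to 15.9 CPM of Gnat3 in sham and 0.099 to 3.60 CPM after transplantation. Its part was not tested, so these 4 values are a description. With flow against LT they were Igh-6 at 12.69, AABR07034739.1 at 9.90 and Mzb1 at 6.58. Igh-6 stood at 4.06 CPM in tuft cells of LT day 7 and 962 CPM in those of flow day 7, and at 244 and 7.26 CPM in other epithelial cells. Groups of 3 samples were too small to test for single samples that stand apart.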

How the results depend on the processing

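Counts of called genes depended on the test and on single samples. Flow against LT, with 0 calls, gave 3 with DESeq2, 1 with no filter on low counts and 1 with each library as its own sample. For both arms against sham (28) the counts were 302, 262 and 15 in the same order, 60 with day as a replicate block, 1 with at least 3 of 4 tuft markers, 0 with thinned cells, 0 without cells holding a lymphocyte or Ptprc transcript, 0 with free RNA subtracted 2 without LT day 7 and flow day 3 and 7 when 2 of 4 further tuft genes were required. For LT against sham (4) they were 208, 181, 15, 37 with the block, 0, 2, 0, 2 and 2, and 0 when further tuft genes were required. For flow against sham (0) they were 107, 112, 5 and 6 with the block. Day 7 against day 1 (43) gave 87, 142 and 138, with 64 when further tuft genes were required, 14 without lymphocyte-positive cells and 4 with free RNA subtracted. The interaction counts were 125 and 27 with no filter and 0 and 0 with no replicate block, for transplantation and flow. The settings on further tuft genes, lymphocyte transcripts and the pair of samples were chosen after seeing the data. The cause of these shifts was not tested.

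Leaving out 1 sample at a time gave 0 to 40 calls for both arms against sham, 0 to 30 for LT, 0 to 19 for flow, 0 to 0 for flow against LT, 0 to 104 for day 7, 1 to 9 for the interaction with transplantation and 0 to 6 for that with flow. The difference in tuft share of epithelial cells ran from -18.4 to -10.9 for both arms and -18.4 to -10.8 for LT, and of all cells from -9.38 to -2.95 and -9.15 to -2.73. Flow against LT changed sign in the share of epithelial cells, at 0.905 as a mean over libraries, 0.294 thinned to 1000 transcripts and -1.29 to 1.46 without single samples (1.03, 0.218 and 1.46 reversed), and in that of all cells, at -1.14 to 0.586 (0.586 and 0.00507 reversed). The interaction of Mzb1 with flow ran from -0.44 without flow day 7 to 6.79 without flow day 1. Correlations between LT and flow samples were 0.37, -0.10 and 0.14 within days 1, 3 and 7, and ran from -0.39 to 0.20 across days. The median of 2078 transcripts per tuft cell limits what genes of low level can show.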

Other observations

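Against sham, the median difference in tuft cells was 1.93 over 18 interferon genes, 1.71 over 11 class I genes, 2.46 over 6 class II genes and 0.84 over 14 NF-kB and chemokine genes, beside -0.03 over all genes. With edgeR, 1 interferon gene (Ifit3) was called, beside 0.14% of all genes, and 0 in the other lists. Ifit3 was low in sham and passed the filter on low counts through the transplanted samples. In the other lists 11, 4 and 6 genes were higher at an unadjusted p under 0.05, beside 9.46% of all genes. Genes of T and NK cells moved with these lists, with a median of 2.63 over 4 genes, and their part in the medians was not tested. No gene was called in this contrast without tuft cells that held a lymphocyte or Ptprc transcript, or with free RNA subtracted. Lcn2, an iron-binding antimicrobial protein, read 70.0, 161 and 339 normalised CPM in sham, 1020, 823 and 1030 in LT and 747, 1950 and 498 in flow (edgeR, adjusted p = 0.0815).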
